A study of Mus musculus with 9 samples.

Results

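The T lineage transcription factors are 10 DNA-binding or DNA-binding-partner proteins that set up and hold T cell identity, taken here as a named list of genes: Tcf7, Lef1, Bcl11b, Gata3, Tox, Satb1, Ets1, Zbtb7b, Runx3 and Id3. All 10 were found among the 50508 rows of the count table, and all 10 passed the filter on low counts that left 14708 genes. They were followed through 3 cell populations of the mouse spleen: a population that the submitters named TDC, conventional dendritic cells (DC), and conventional T cells. All populations came from untreated 8-week-old mice homozygous for Zbtb46-GFP, a green fluorescent reporter of the locus of Zbtb46, a transcription factor of conventional DC, so that both controls carried the reporter too. Each population had 3 libraries, each a pool of spleens, 5 for replicate 1 and 6 for replicates 2 and 3, and the labels give RPMI medium with serum for the cells. How the populations were gated is not stated in the sources used.

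In the thymus, Notch signals switch on Tcf7, which encodes TCF-1, and TCF-1 with GATA3 opens the T cell gene program. Bcl11b then closes access to other fates, and Lef1, Tox, Satb1 and Ets1 act in the later steps. Zbtb7b, which encodes ThPOK, and Runx3 oppose each other when CD4 and CD8 T cells part. Id3 encodes a protein that binds E proteins and keeps them off DNA. Several of these genes are not restricted to T cells: innate lymphoid cells, B cells and DC subsets also use some of them.

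Levels are given as CPM, reads scaled to a library size corrected by trimmed means of M values (TMM), and errors are the SD over 3 libraries. Log2 fold changes (log2FC), their standard errors (SE) and adjusted p-values were taken from the quasi-likelihood test of edgeR on all 9 libraries, with Benjamini-Hochberg adjustment over 14708 genes and a threshold of 0.05. The libraries read transcripts near their 3' ends, and levels are compared here within a gene. Library totals ran from 14594850 to 22677130 reads in TDC, from 14973484 to 25676640 in DC and from 10986544 to 18071425 in T cells, so 1 read equalled 0.0383 to 0.0897 CPM. The summed level of 8 T cell markers was 66.5 to 218 CPM in TDC, 26.8 to 27.2 CPM in DC and 5834 to 8521 in T cells, with Cd3e and Cd3g at 0 reads in DC. For 8 DC markers the sums were 2075 to 4818 CPM in TDC, 20128 to 38927 CPM in DC and 105 to 179 in T cells. Those of 8 macrophage markers were 36575 to 67009 CPM in TDC, 166 to 290.0 CPM in DC and 1.76 to 4.84 in T cells, where Adgre1, C1qc, Cd5l and Mertk had no reads. The 8 B cell markers summed to 96.0 to 151 CPM in TDC (Pax5 at 0), 309.6 to 399 CPM in DC and 14.9 to 34.9 in T cells (Fcrla at 0). The sums for natural killer and innate lymphoid markers were 75.1 to 89.4 CPM in TDC (Ncr1 at 0), 67.7 to 108 CPM in DC (Eomes and Gzma at 0) and 137 to 181 CPM in T cells. Erythroid markers summed to 698 to 2211 CPM in TDC, 1.49 to 22.4 CPM in DC and 0.774 to 1.78 in T cells. Neutrophil markers summed to 121 to 151 CPM in TDC (Camp and Ltf at 0), 63.0 to 131 CPM in DC (Retnlg and Camp at 0) and at most 0.141 CPM in T cells. Single genes made up most of some sums. Csf3r, of the neutrophil list, had a mean of 115 CPM in TDC and 93.6 CPM in DC. Klrk1, of the natural killer list, had 81.0 CPM in TDC and 81.9 CPM in DC. Cd5 had 22.7 CPM of the T cell marker sum in DC, and H2-Ab1 3404 CPM of the DC marker sum in TDC. The part of such other cells in the levels of the factors was not tested.

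The levels of the 10 factors fell into a few patterns. Lef1, Bcl11b and Tox had almost no reads in DC, were highest in T cells and were at 2.45% to 4.03% of the T cell level in TDC. Gata3 was at 4.79% of it in TDC and overlapped DC, where nearly all its reads were in 1 library. Tcf7, Satb1 and Ets1 were also highest in T cells but were counted in every TDC and DC library as well. Runx3 and Id3 were lower in TDC than in either control, and Zbtb7b passed no test. Against T cells, 9 of the 10 factors were lower in TDC and 0 higher, where 11.2% of all genes tested were lower and 21.8% higher. Against DC, 3 factors were higher in TDC and 2 lower, where 9.55% of all genes tested were higher and 4.60% lower. In the fit of TDC and DC alone 2 factors were higher, as Tox was then under the filter. Between the controls, 7 of 10 were lower in DC than in T cells, against 8.41% of all genes tested. Library values did not overlap between TDC and T cells for all 10 factors (52.0% of all genes tested), between TDC and DC for 7 (34.9%) and between DC and T cells for 8 (39.8%). Of all calls 66.0% were higher in TDC against T cells and 67.5% against DC, or 42.9% and 53.1% when libraries were scaled by their totals alone. Since the 3 comparisons share libraries, their counts are not independent of each other. In sorted populations profiled as a whole, fewer cells that express a factor and less of its RNA per cell cannot be told apart.

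**Figure D1:**
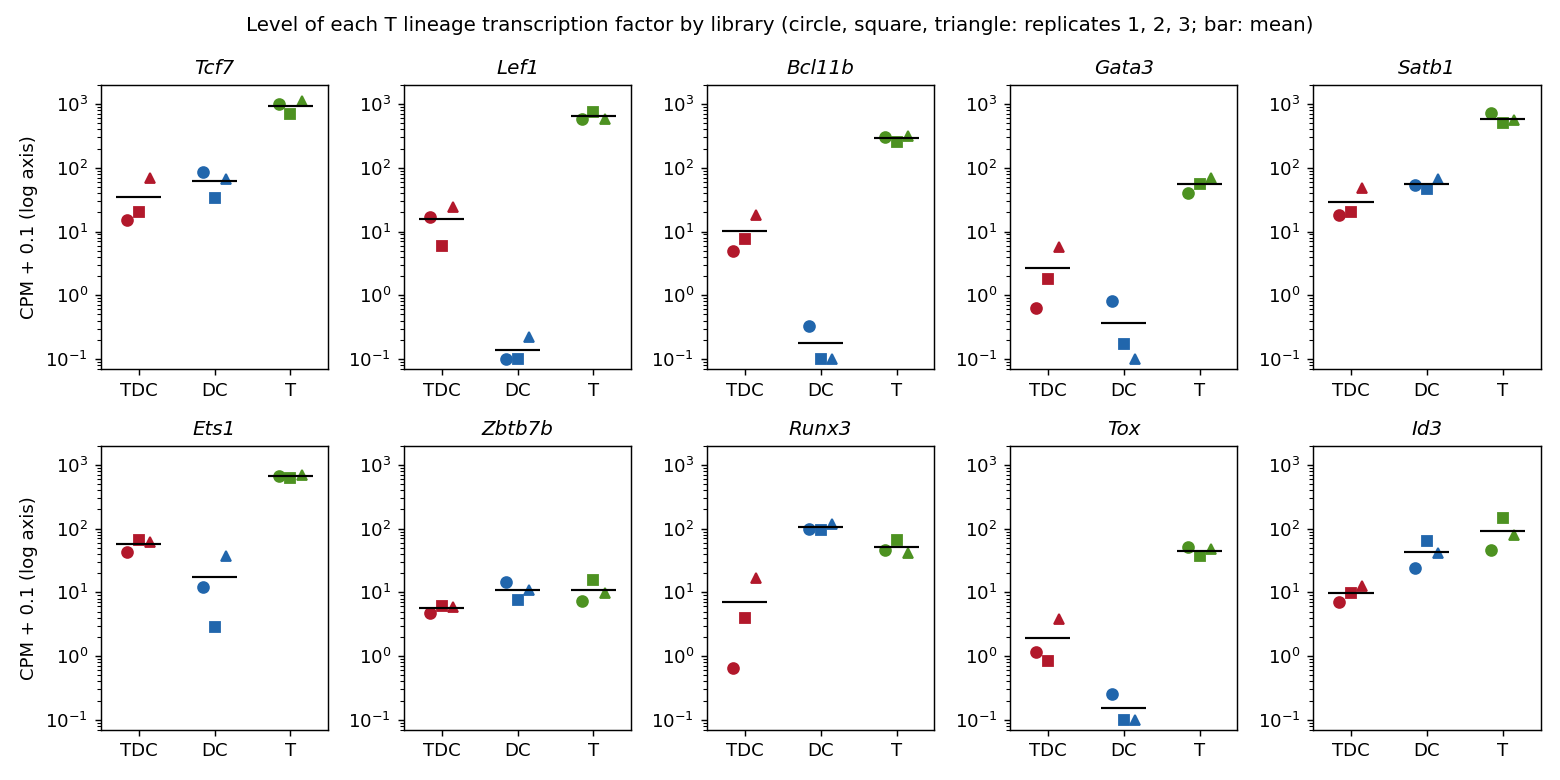
Level of each of the 10 factors in every library, as CPM + 0.1 on a log axis, for TDC, DC and T cells, with replicates 1, 2 and 3 as circles, squares and triangles and the group mean as a bar. For Lef1, Bcl11b, Tox and Ets1 the TDC libraries lie between those of DC and of T cells, and for Runx3, Id3 and Zbtb7b they lie below both. Ets1 against DC and Zbtb7b against either control were not called.

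Sequences upstream of 2 factors that held a marked motif are shown: Bcl11b, nearly without reads in DC, and Runx3, at its highest mean there. Each is the 250 bases before the most upstream start in the RefSeq promoter table (build GRCm38.p6), written 5' to 3' on the strand of the gene, and capitals mark short motifs of factors named here or their complements.
Bcl11b, chr12:108003415-108003664, minus strand: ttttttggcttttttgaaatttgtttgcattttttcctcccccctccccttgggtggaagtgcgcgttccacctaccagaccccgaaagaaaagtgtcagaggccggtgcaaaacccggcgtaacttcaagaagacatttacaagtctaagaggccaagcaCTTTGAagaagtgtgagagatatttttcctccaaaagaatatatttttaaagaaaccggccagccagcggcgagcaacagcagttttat
Runx3, chr4:135120395-135120644, plus strand: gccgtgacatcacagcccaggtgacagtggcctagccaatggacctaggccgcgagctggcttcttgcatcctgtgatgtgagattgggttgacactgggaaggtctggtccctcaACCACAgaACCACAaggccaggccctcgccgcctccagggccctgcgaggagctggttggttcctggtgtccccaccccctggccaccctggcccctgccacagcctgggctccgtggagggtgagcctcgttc
The capitals in Bcl11b are the TCF/LEF core CTTTGA, which starts 89 bases before the start of transcription. In Runx3 they are the complement of the RUNX core TGTGGT, present in 2 copies at 134 and 126 bases before it. Both strands were searched in 27018 promoters of this length, with 1 start per gene. CTTTGA was in 14.1% of them and in 1 of the 8 factors with an entry, TGTGGT in 14.2% and again in 1 of 8 (Runx3). The ETS core CCGGAA was in 12.2% of promoters and in 1 of 8 factors (Gata3). The GATA core AGATAA was in 10.2% and the PU.1 motif GAGGAAGT in 2.42%, both in 0 of 8. The E protein motif CANNTG was in 66.1% of promoters and in 4 of 8 factors (Tcf7, Lef1, Zbtb7b and Runx3). In Tcf7 the match lies in an open frame that runs from an ATG to the end of the sequence, so that entry may hold coding bases. These are matches of letters. A CANNTG near the start of the Runx3 sequence was left in lower case and does not overlap the capitals. Ets1 and Tox were not among the 8. Lef1, with 2 reads in DC beside 6 of Bcl11b, held none of the motifs that are marked in capitals.

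Tcf7 encodes TCF-1, an HMG-box factor that acts from the first steps of the T lineage onwards. It was counted at 15.1, 20.4 and 68.4 CPM in TDC libraries 1 to 3, at 85.8, 33.7 and 67.6 CPM in DC and at 1004, 704 and 1121 CPM in T cells. All TDC and DC libraries were far below all T cell libraries, while TDC and DC overlapped. The TDC mean of 34.6 ± 29.4 CPM was 3.67% of the T cell mean of 943 ± 215 CPM (log2FC -4.77, SE 0.65, adjusted p = 0.000354), and without TDC replicate 3, the highest of its group, the log2FC was -5.75. Against the DC mean of 62.4 ± 26.4 CPM it was not called (log2FC -0.85, SE 0.56, adjusted p = 0.364). Without the same library Tcf7 passed the threshold against DC at a log2FC of -1.87 (adjusted p = 0.0388, with 0.0388 to 0.647 over the 18 alternatives). Tcf7 in DC was 6.62% of its T cell mean (log2FC -3.92, SE 0.62, adjusted p = 0.00117). DC libraries 1 to 3 held 2242, 484 and 1134 Tcf7 reads, and 10, 35 and 0 reads of Cd3d, Cd3e, Cd3g and Trac together. The part of T cells in the Tcf7 level of DC was not tested.

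Lef1 encodes the close relative of TCF-1 that shares its DNA motif. It had 17.1, 5.91 and 24.4 CPM in TDC, 0, 0 and 0.119 CPM in DC (2 reads in all) and 591, 764 and 588 CPM in T cells. No 2 of these groups overlapped. The TDC level was 2.45% of the T cell level, the lowest share of the 10 factors (log2FC -5.36, SE 0.63, adjusted p = 0.000139). Against the 2 reads in DC the pooled TDC level was 421-fold higher, with a 95% interval of 116 to 3484 that covers counting error only (edgeR adjusted p = 0.000334). Both DC reads were in replicate 3. Tcf7 and Lef1 thus lay at like shares of their T cell level in TDC but parted in DC, where Tcf7 had reads in every library and Lef1 in a single one.

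Bcl11b, a zinc finger repressor that commits progenitors to the T lineage, had 4.85, 7.64 and 18.1 CPM in TDC, 0.230, 0 and 0 CPM in DC and 307, 259 and 314 in T cells. The groups did not overlap. TDC held 3.48% of the T cell level (log2FC -4.84, SE 0.67, adjusted p = 0.000405), with a log2FC of -5.56 without TDC replicate 3. They were above DC (log2FC 6.60, SE 0.85, adjusted p = 0.000982, and 5.87 without TDC replicate 3). All 6 DC reads were in replicate 1, so that without it the DC group had no read of Bcl11b. The pooled reads gave a ratio of 97.4 with a 95% counting interval of 44.4 to 267.

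Gata3, a zinc finger factor needed for early T cells and for the CD4 fate, had 0.538, 1.67 and 5.66 CPM in TDC, 0.727, 0.0697 and 0 CPM in DC and 40.9, 55.0 and 68.6 in T cells. TDC replicate 1, with 6 reads, lay below DC replicate 1, with 19 reads, so that TDC and DC overlapped. Gata3 fell to 4.79% of the T cell level in TDC (log2FC -4.38, SE 1.03, adjusted p = 0.00876), and without TDC replicate 3 the log2FC was -5.59. It was not called against DC (log2FC 3.11, SE 1.06, adjusted p = 0.0799). Without DC replicate 1 that log2FC was 6.04 (adjusted p = 0.0224) and with the DESeq2 Wald test it was 3.24 (adjusted p = 0.00972), where the 18 alternatives ran up to 0.308.

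Tox, an HMG-box factor of CD4 lineage development and of chronically stimulated T cells, had 1.08, 0.725 and 3.65 CPM in TDC (12, 13 and 49 reads), 0.153, 0 and 0 CPM in DC and 50.4, 37.6 and 47.3 in T cells. The groups did not overlap. The TDC level was 4.03% of the T cell level (log2FC -4.63, SE 0.82, adjusted p = 0.00180) and above that of DC (log2FC 4.67, SE 0.98, adjusted p = 0.0102). Without TDC replicate 3 the log2FC was -5.68 against T cells and 3.60 against DC (adjusted p = 0.0348). In the fit of TDC and DC alone Tox was under the filter, so it entered the comparison with DC through its T cell reads. The DC group held 4 Tox reads, all in replicate 1, and the pooled ratio was 24.9 with a 95% counting interval of 9.33 to 93.9.

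Satb1 encodes a chromatin organiser of thymocytes. It had 18.3, 20.5 and 47.5 CPM in TDC, 54.0, 45.7 and 67.6 CPM in DC and 713, 499 and 566 in T cells. TDC replicate 3 reached into the DC range, and both were far below T cells. TDC were at 4.85% of the T cell level (log2FC -4.37, SE 0.45, adjusted p = 6.08e-05), or at a log2FC of -4.95 without TDC replicate 3. Against DC Satb1 was not called (log2FC -0.96, SE 0.39, adjusted p = 0.139). Without TDC replicate 3 the log2FC was -1.58 (adjusted p = 0.0220), and the alternatives ran from 0.0220 to 0.357.

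Ets1, an ETS-family activator that lymphocytes keep at high levels, had 43.2, 65.1 and 60.9 CPM in TDC, 12.02, 2.79 and 36.8 CPM in DC and 672, 630.2 and 698 in T cells. The TDC libraries were close to each other and lay between the other groups with no overlap, whereas the DC libraries spread widely. Ets1 kept 8.46% of the T cell level in TDC (log2FC -3.56, SE 0.72, adjusted p = 0.00392). The difference from DC was not called (log2FC 1.71, SE 0.68, adjusted p = 0.126). It passed without DC replicate 3, the highest DC library (log2FC 2.91, adjusted p = 0.0102), and with limma-voom (log2FC 2.31, adjusted p = 0.0220), with 0.295 the largest value over the alternatives.

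Runx3, a RUNX factor of CD8 T cells, natural killer cells and some DC, was the factor most reduced in TDC relative to DC. It had 0.538, 3.85 and 16.8 CPM in TDC (6, 69 and 225 reads), 96.7, 96.4 and 120 CPM in DC and 45.6, 65.3 and 40.7 in T cells. All TDC libraries lay below all libraries of both controls, and they spread more than 10-fold among themselves. The TDC mean was 6.77% of the DC mean (log2FC -3.88, SE 0.88, adjusted p = 0.0150) and 14.0% of the T cell mean (log2FC -2.84, SE 0.84, adjusted p = 0.0254). Without TDC replicate 3 the log2FC was -5.55 against DC and -4.47 against T cells, and with limma-voom -4.86 and -3.80. The call against DC was lost without TDC replicate 2 (adjusted p = 0.0723). The call against T cells was lost without T cell replicate 1 (adjusted p = 0.0517), T cell replicate 2 (0.0683) or TDC replicate 2 (0.1004) and with no filter on low counts (0.0654). DC libraries lay above T cell libraries without being called (log2FC 1.04, SE 0.79, adjusted p = 0.391), a difference that passed only in the fit of these 2 groups alone (adjusted p = 0.0411).

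Zbtb7b encodes ThPOK, the factor of the CD4 lineage. It had 4.67, 6.02 and 5.81 CPM in TDC, 14.5, 7.39 and 10.7 CPM in DC and 7.17, 15.3 and 9.53 in T cells. The TDC libraries were the lowest 3 of the 9, and DC and T cells overlapped. No comparison passed: the log2FC was -0.95 (SE 0.53, adjusted p = 0.193) against T cells and -0.98 (SE 0.53, adjusted p = 0.256) against DC. When libraries were scaled by their totals alone, which moved the median log2FC of all genes by -0.61 between TDC and T cells, Zbtb7b passed against T cells at -1.52 (adjusted p = 0.0447, against 0.522 at most over the alternatives).

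Id3, the inhibitor of E proteins, had 7.0, 9.81 and 12.4 CPM in TDC, 24.2, 64.0 and 41.2 CPM in DC and 46.6, 145 and 78.3 in T cells. All TDC libraries were below every control library, and DC and T cells overlapped. TDC were at 10.8% of the T cell level (log2FC -3.21, SE 0.53, adjusted p = 0.00120) and 22.6% of the DC level (log2FC -2.15, SE 0.51, adjusted p = 0.0184). The call against DC ended without TDC replicate 1 (adjusted p = 0.0611) or TDC replicate 2 (0.0655). DC and T cells were not called apart (log2FC -1.06, SE 0.49, adjusted p = 0.149).

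**Figure D2:**
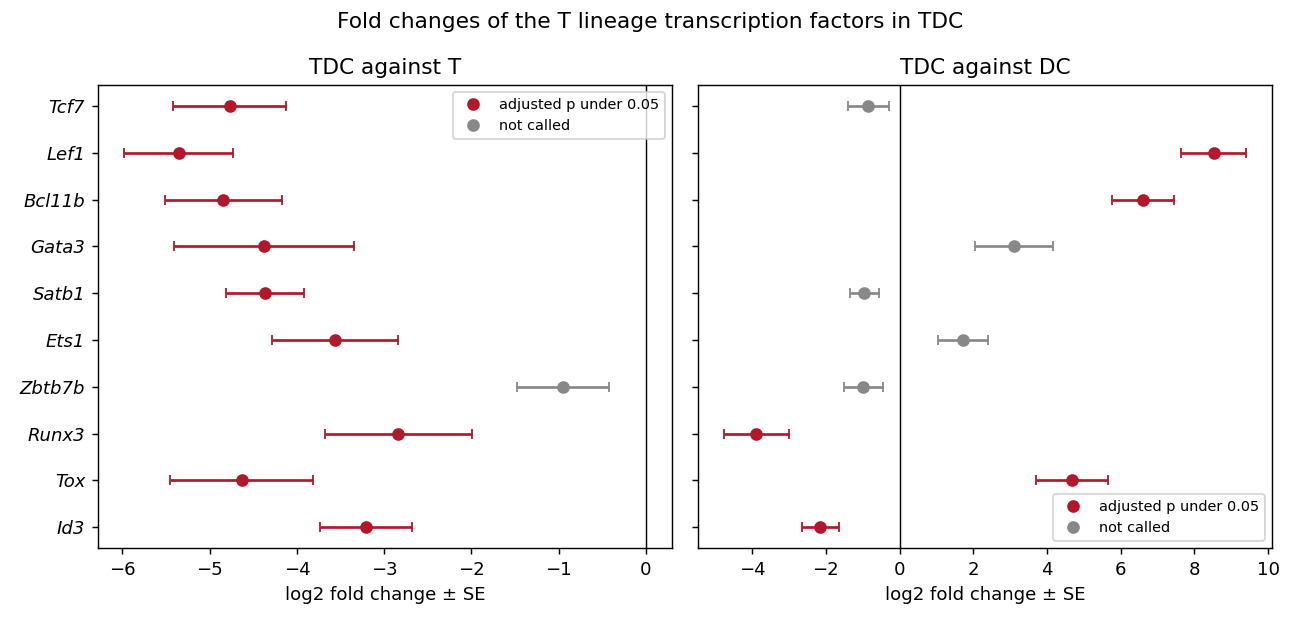
Log2 fold changes with SE of the 10 factors for TDC against T cells (left) and TDC against DC (right), in red where the adjusted p was under 0.05. Against T cells all but Zbtb7b are called and negative, while against DC Lef1, Bcl11b and Tox are positive and Runx3 and Id3 negative. The fitted value of Lef1 against DC rests on 2 DC reads.

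Because T cell receptor genes were also low in TDC, each factor was set against the summed reads of Cd3d, Cd3e, Cd3g and Trac in the same library, a ratio free of scaling between libraries. These 4 genes had 1280, 534 and 1347 reads in TDC and 50114, 105252 and 65423 reads in T cells. Lef1 had 14.96, 19.9 and 24.4 reads per 100 receptor reads in TDC and 16.8, 14.7 and 17.4 in T cells, ranges that overlapped and geometric means 1.19-fold apart (exact two-sided permutation p = 0.3). For Tcf7 the ratio was 13.2, 68.4 and 68.2 in TDC and 28.5, 13.5 and 33.3 in T cells, again overlapping (exact permutation p = 0.6). Bcl11b had 4.26, 25.7 and 18.1 in TDC and 8.71, 4.98 and 9.33 in T cells (exact permutation p = 0.5).

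Ets1, Id3 and Zbtb7b were the 3 factors whose TDC ratios all lay above those of T cells. Ets1 had 37.6, 219 and 60.7 reads per 100 receptor reads in TDC against 19.1, 12.1 and 20.7 in T cells, and Id3 had 6.13, 33.1 and 12.4 in TDC against 1.32, 2.79 and 2.32 in T cells. Zbtb7b had 4.10, 20.3 and 5.83 in TDC against 0.205, 0.294 and 0.284 in T cells. Each reached an exact permutation p of 0.1, the smallest that 3 against 3 libraries allow, so the ratio cannot pass 0.05. Of all genes tested, 92.6% had TDC ratios above those of T cells without overlap and 0.129% below. The other 7 factors overlapped, and in each of them TDC replicate 1 was the lowest of the TDC libraries (0.508 reads per 100 for Gata3 and for Runx3, 0.977 for Tox). TDC replicate 1 decided that count: without it the ratios of all 10 factors lay above those of T cells, as did those of 96.3% of all genes tested.

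**Figure D3:**
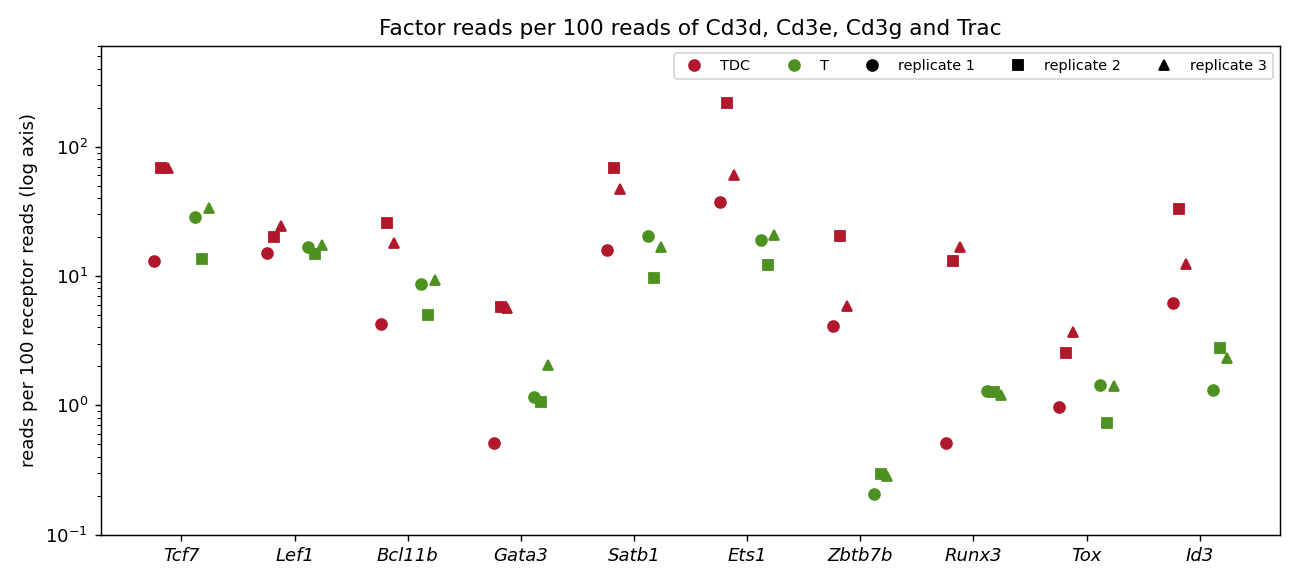
Reads of each factor per 100 reads of Cd3d, Cd3e, Cd3g and Trac in the same library, on a log axis, for TDC (left of each pair) and T cells, with 1 symbol per replicate. Ets1, Zbtb7b and Id3 are higher in every TDC library, Lef1 lies at like values in both, and TDC replicate 1 (circles) is the lowest TDC library for all 10 factors.

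Several factors have paralogs that moved the other way. Of 18 paralogs, 14 were tested: against T cells 5 were higher in TDC and 0 lower, and against DC 6 were higher and 2 lower. The shares against T cells were 35.7% higher and 0% lower, beside 21.8% and 11.2% of all genes tested. Those against DC were 42.9% higher and 14.3% lower, beside 9.55% and 4.60%. Tcf7l2, a TCF/LEF factor of Wnt signalling, was at 299 ± 119 CPM in TDC, 33.0 ± 8.26 CPM in DC and 0.174 ± 0.215 in T cells. TDC thus exceeded T cells (log2FC 10.84, SE 0.78, adjusted p = 7.80e-06) and DC (3.18, SE 0.52, adjusted p = 0.00304). Without T cell replicate 1 the log2FC against T cells was 12.35. Bcl11a, a paralog of Bcl11b used by B cells and DC, was at 7.34 ± 6.77 CPM in TDC, 102 ± 20.2 CPM in DC and without reads in T cells. It was at least 132-fold higher in TDC than in T cells, computed with 3 reads over the T cell group (adjusted p = 0.000475), and lower than in DC (log2FC -3.80, SE 0.67, adjusted p = 0.00738). The TDC libraries had 2.87, 4.01 and 15.1 CPM, and without TDC replicate 3 the bound was 61.8-fold and the log2FC against DC -4.92.

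The Id genes parted as well. Id2, which takes part in DC and innate lymphoid development, was at 4893 ± 2462 CPM in TDC, 1309 ± 678 CPM in DC and 459 ± 187 in T cells (log2FC 3.41, SE 0.53, adjusted p = 0.000790 against T cells; 1.90, SE 0.50, adjusted p = 0.0280 against DC). There were 236 to 1086 Id2 reads for each Id3 read in TDC, 21.5 to 39.2 in DC and 4.46 to 7.58 in T cells, with no overlap. Id1 was at 39.7 ± 10.2 CPM in TDC, 5.14 ± 4.84 CPM in DC and 1.99 ± 0.826 in T cells (adjusted p = 0.00209 against T cells and 0.0225 against DC). The Id2 call against DC ended without TDC replicate 1 (adjusted p = 0.0724), DC replicate 1 (0.0995) or DC replicate 3 (0.0800). The Id1 call against DC ended without TDC replicate 2 (0.0847), TDC replicate 3 (0.0508) or DC replicate 3 (0.0587).

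Among the ETS genes, Ets2 was at 95.2 ± 47.4 CPM in TDC, 13.6 ± 14.1 CPM in DC and 24.6 ± 9.77 in T cells. It was called against DC (log2FC 2.81, SE 0.75, adjusted p = 0.0303) but not against T cells (1.95, SE 0.72, adjusted p = 0.0610). The call against DC ended under 7 of the 18 alternatives, among them the fits without TDC replicate 1 (adjusted p = 0.0697), TDC replicate 2 (0.127), DC replicate 1 (0.104) or DC replicate 2 (0.0670). Without DC replicate 3 the log2FC was 4.09. Against T cells 6 alternatives brought a call, with 0.00862 to 0.0496 among them and without DC replicate 2 or 3 at 0.0289 and 0.0127. Fli1 was not called in TDC against either control, with 72.4 ± 11.01 CPM in TDC, 41.0 ± 13.1 CPM in DC and 94.96 ± 8.93 in T cells (adjusted p = 0.119 against DC and 0.381 against T cells).

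Runx1, the RUNX factor of blood stem cells and early thymocytes, was at 59.7 ± 1.59 CPM in TDC, 105 ± 5.60 CPM in DC and 69.7 ± 10.9 in T cells. It was not called against T cells (log2FC -0.22, SE 0.26, adjusted p = 0.555) or against DC (-0.82, SE 0.26, adjusted p = 0.0656). Against DC it passed under 5 alternatives (adjusted p = 0.00860 to 0.0452), and against T cells with library size as the only scaling (0.0369). Runx2 was at 2.03 ± 2.44 CPM in TDC, 21.6 ± 7.06 CPM in DC and 5.47 ± 2.20 in T cells, lower than in DC (log2FC -3.41, SE 0.87, adjusted p = 0.0252). The log2FC was -5.17 without TDC replicate 3 and -4.06 with limma-voom. That call ended without TDC replicate 1 (adjusted p = 0.0668), TDC replicate 2 (0.0881), DC replicate 1 (0.0612) or DC replicate 3 (0.0520). Against T cells Runx2 had an adjusted p of 0.206, and 0.0116 without TDC replicate 3. Zbtb7a and Tox4 were counted in all groups and not called, with 74.0 ± 20.8 and 139 ± 44.0 CPM in TDC, 46.4 ± 16.9 and 158 ± 49.9 CPM in DC and 47.7 ± 11.8 and 90.1 ± 13.3 CPM in T cells.

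**Figure D4:**
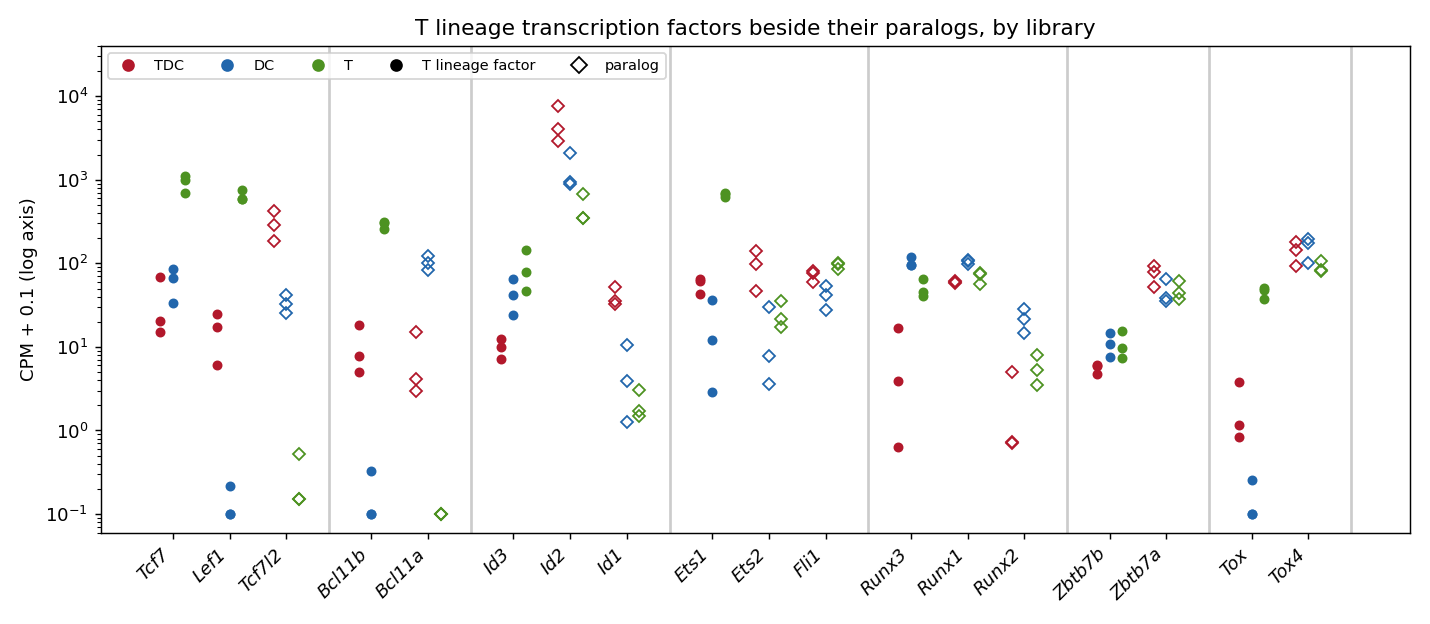
CPM + 0.1 on a log axis in every library for factors (filled circles) and their paralogs with at least 10 CPM in a group (open diamonds), in TDC, DC and T cells from left to right. Tcf7l2 and Id2 are highest in TDC while Tcf7 and Lef1 are highest in T cells, and Bcl11a is highest in DC. Id3 has its highest mean in T cells, where its libraries overlap those of DC.

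Genes around the factors were counted by list. All gene lists, like the factors, were chosen with earlier results of these data known, so their shares describe the lists and are not tests. Of 23 other T cell regulators, 13 (56.5%) were lower in TDC against T cells and 0 higher, beside 11.2% and 21.8% of all genes tested. Their median log2FC was -2.69, beside -4.37 for the 10 factors and 0.14 for all genes tested. The smallest adjusted p-values were those of Stat4, which carries interleukin-12 signals (log2FC -2.93, SE 0.34, adjusted p = 0.000120), Foxp1, a factor of quiescence (-2.69, SE 0.33, adjusted p = 0.000174), Foxo1, a factor of naive T cells (-2.69, SE 0.44, adjusted p = 0.00118), and Myb (-3.09, SE 0.56, adjusted p = 0.00191). Against DC, 1 was higher (4.35%) and 3 lower (13.0%), beside 9.55% and 4.60% of all genes tested. Foxp3, the regulatory T cell factor, had 2.61 ± 1.65 CPM in TDC and 1 read in DC (adjusted p = 0.00172), and Zeb1, a zinc finger repressor, was lower in TDC, with 4.76 ± 2.12 CPM there and 37.5 ± 26.7 CPM in DC (log2FC -2.98, adjusted p = 0.00824, and -2.22 without DC replicate 3).

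A further list held 25 genes of the T cell surface and receptor signalling, named T cell target genes. Whether they are targets of these factors was not tested. Of the 25, 24 were lower in TDC than in T cells (median log2FC -4.84) and 14 were higher and 2 lower than in DC. The lower share against T cells was 96%, beside 11.2% of all genes tested. The shares against DC were 56% higher and 8% lower, beside 9.55% and 4.60%. Cd2, an adhesion receptor, was at a log2FC of -5.47 (SE 0.53, adjusted p = 4.56e-05) against T cells, Cd3e at -5.30 (SE 0.44, adjusted p = 5.96e-05), the chemokine receptor gene Ccr7 at -3.82 (SE 0.39, adjusted p = 6.09e-05) and the adaptor gene Lat at -5.48 (SE 0.56, adjusted p = 6.21e-05). Lat had 27.1 ± 13.4 CPM in TDC and 3 reads in DC (adjusted p = 0.000161 between them), and the costimulatory receptor gene Cd28 had 17.1 ± 8.31 CPM in TDC and 1 read in DC (adjusted p = 0.000149).

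Of 16 partners and cofactors, 2 were higher in TDC against T cells and 3 lower, and edgeR called 0 against DC, where 7 had an unadjusted p under 0.05, DESeq2 called 3 and limma-voom 1. The shares against T cells were 12.5% higher and 18.75% lower, beside 21.8% and 11.2% of all genes tested. Tcf4, an E protein of plasmacytoid DC and B cells, was at 69.1 ± 13.9 CPM in TDC, 65.2 ± 13.0 CPM in DC and 2.44 ± 1.44 in T cells (log2FC 4.83, SE 0.54, adjusted p = 0.000109 against T cells). Ldb1, an adaptor of GATA complexes, was lower (-1.75, SE 0.28, adjusted p = 0.000924), as were the corepressor gene Tle5, listed as Aes (-1.14, SE 0.26, adjusted p = 0.00693), and the histone deacetylase gene Hdac1 (-1.13, SE 0.29, adjusted p = 0.0122). The Hdac1 call ended without T cell replicate 2 (adjusted p = 0.0552).

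In the Notch pathway, which acts upstream of Tcf7, 2 of 9 genes tested were higher in TDC against T cells and 2 lower, and 1 was higher and 2 lower than in DC. The higher share of 22.2% against T cells was near the 21.8% of all genes tested, as was the 11.1% against DC near 9.55%. The lower share was 22.2% against T cells, beside 11.2% of all genes tested, and 22.2% against DC, beside 4.60%. Each of these shares rests on 1 or 2 genes. The Notch target gene Hes1 was at 149 ± 56.9 CPM in TDC, 124 ± 116 CPM in DC and 0.141 ± 0.244 in T cells (log2FC 10.22, SE 1.22, adjusted p = 0.000158 against T cells). All 6 Hes1 reads of the T cell group were in replicate 1, and the log2FC was 9.57 without T cell replicate 2, 9.59 without replicate 3 and 14.34 without replicate 1, a fitted value that then rests on no T cell read. The receptor gene Notch2 was higher as well (3.25, SE 0.58, adjusted p = 0.00199). Dtx1, another Notch target, was at 14.98 ± 15.4 CPM in TDC, 214 ± 58.3 CPM in DC and 95.7 ± 26.5 in T cells, lower than in T cells (-2.67, SE 0.66, adjusted p = 0.0106) and than in DC (-3.83, SE 0.69, adjusted p = 0.00504). Without TDC replicate 3 the log2FC of Dtx1 was -3.95 against T cells and -5.14 against DC. The call of Dtx1 against T cells ended without TDC replicate 2 (adjusted p = 0.0517). The coactivator gene Maml2 was at 8.71 ± 2.64 CPM in TDC, 1.27 ± 0.0935 CPM in DC and 37.1 ± 7.60 in T cells (adjusted p = 0.00321 against T cells and 0.00234 against DC).

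Against T cells, transcription factors of DC and macrophages ran opposite to the T lineage factors. Of 19, 17 were higher in TDC (89.5%, beside 21.8% of all genes tested), with a median log2FC of 5.40. Against DC, 8 were higher (42.1%) and 4 lower (21.1%), beside 9.55% and 4.60%. The 4 lower ones were Nfil3 (log2FC -3.14, adjusted p = 0.000639), Relb (-1.99, adjusted p = 0.00277), Zbtb46 (-3.08, adjusted p = 0.00281) and Bhlhe40 (-1.49, adjusted p = 0.0347). Zbtb46 was at 7.95 ± 2.23 CPM in TDC, 67.1 ± 40.9 CPM in DC and 1.28 ± 0.304 in T cells. All populations carried the green fluorescent reporter of this locus, and its effect on the Zbtb46 reads was not tested. Spic, a factor of red pulp macrophages, had 2887 ± 1376 CPM in TDC, 16.9 ± 5.83 CPM in DC and 1 read in T cells (log2FC against DC 7.42, SE 0.59, adjusted p = 0.000117). Spi1, which encodes PU.1, was at 391 ± 88.8 CPM in TDC and had no reads in T cells, a difference of at least 7021-fold (adjusted p = 4.34e-06). Zeb2 (8.47, SE 0.58, adjusted p = 5.95e-06) and Irf8 (6.47, SE 0.46, adjusted p = 6.88e-06) were higher than in T cells, and Maf was higher than in DC (7.36, SE 0.84, adjusted p = 0.000533, with 8.43 without DC replicate 2 and 8.06 by limma-voom). Irf8 was at 782 ± 162 CPM in TDC beside 789 ± 246 CPM in DC, and Zeb2 at 203 ± 74.3 CPM beside 64.3 ± 21.2 CPM.

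**Figure D5:**
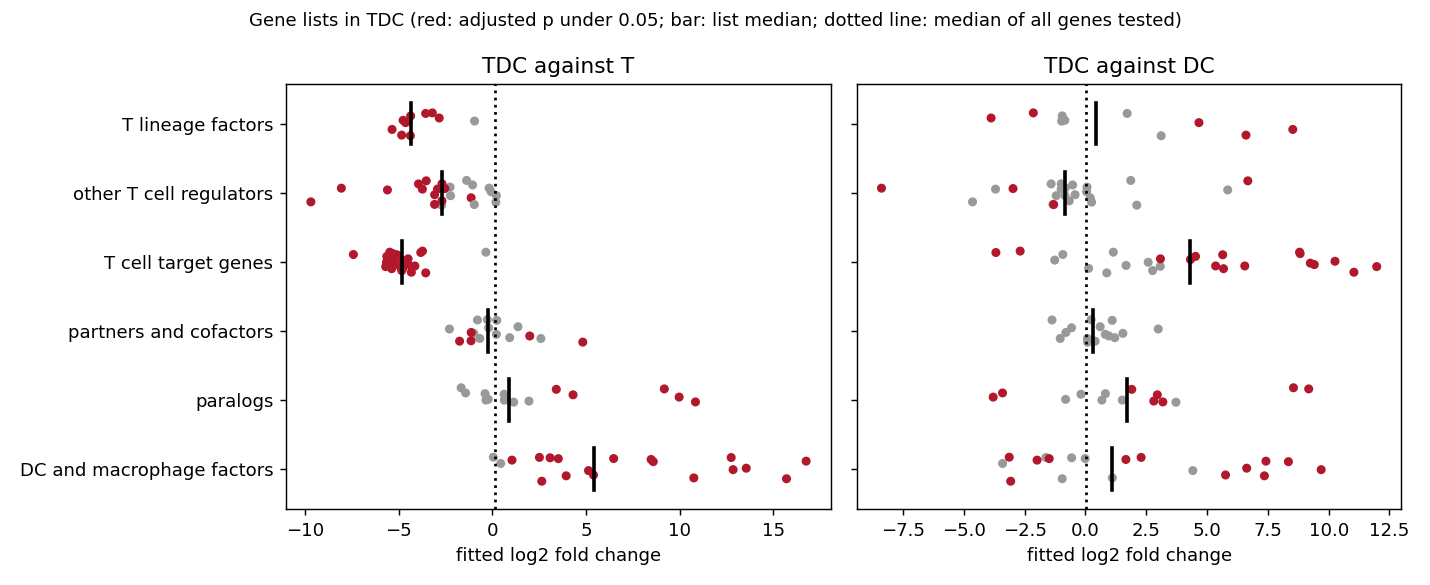
Fitted log2 fold changes of the genes of 6 lists for TDC against T cells (left) and TDC against DC (right), with called genes in red, the list median as a bar and the median of all genes tested as a dotted line. Points far from 0 that belong to groups without reads depend on the prior count of the fit, and the T lineage factors and T cell target genes lie left of 0 against T cells.

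Genes with the pattern most like each factor were found by Pearson's r of log2(CPM + 0.5) over the 9 libraries, which fall into 3 populations and share depth and composition within each, so that r mainly follows the group levels. Those nearest to Lef1 were Lat (r = 0.998), Cd3g (0.998) and Cd3e (0.998), all genes of the T cell receptor complex or its signalling. Bcl11b was nearest to Prkcq (0.999), Foxp3 (0.997) and Trib2 (0.994), Gata3 to Il2rb (0.993), Izumo1r (0.990) and Hid1 (0.989), and Tox to Hid1 (0.996), Gm14085 (0.995) and Camk4 (0.995). Tcf7 and Satb1, which were both counted in DC, shared Traf4 (0.987 and 0.992) and Srpk1 (0.984 and 0.994), with Faah (0.979) next for Tcf7 and Cd5 (0.991) for Satb1. Ets1 was nearest to Cmah (0.989), Gtf2i (0.968) and Abcb9 (0.967). Runx3 was nearest to Rnmt (0.984), Mapk11 (0.984) and Mbp (0.977), and Id3 to 4930523C07Rik (0.986), Sike1 (0.977) and Socs1 (0.968). The best for Zbtb7b were lower, with Eif2a (0.897), Eif3l (0.892) and Setbp1 (0.888).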

How the data were processed

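Libraries were made with a stranded 3' end kit (Lexogen QuantSeq), per the labels' protocols. The deposited values are raw read counts, 1 row per gene and 1 column per library. FastQC, MultiQC, Trimmomatic, STAR and featureCounts are named without versions, per the submitters' processing notes, which also name the human build hg38 although the gene symbols are mouse. No source used here gives the annotation or the strand setting, so reads of a factor and of overlapping genes cannot be told apart. In GENCODE M21, Lef1, Gata3, Satb1, Zbtb7b and Tox overlap such genes, with 376 reads over all libraries in the largest case (Gm43352, opposite Lef1).

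The filter filterByExpr, with a minimum count of 10 and a total of 15, passed 14708 genes, which held 99.8% or more of every library. 26 rows had been turned into dates. A robust quasi-likelihood fit of the 3 groups in edgeR 4.0.16 (R 4.3.3), with TMM factors and 6 residual degrees of freedom, gave the tests, and SE is the log2 fold change divided by the root of the F statistic. The fit was tested on simulated data. Receptor ratios used reads + 0.5 and exact permutation. Alternatives were other scalings and filters, DESeq2 1.42.0, limma-voom (limma 3.58.1), fits of 2 groups, a replicate block and the removal of single libraries. Libraries of a group differed by 62.3 to 250.4 chi-square units per degree of freedom, so none repeated another. Since no label names the animals behind a pool, the p-values reflect how pools vary, which may be technical.

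The factors and gene lists were chosen with earlier results of these data known. The named genes followed a rule: all 10 factors, paralogs of at least 10 CPM in a group, up to 4 called genes per list with the smallest adjusted p against T cells and up to 2 against DC, and the 3 genes nearest to each factor. The 4 DC and macrophage factors that were lower in TDC than in DC were named outside this rule and not run through the alternatives. Tle5 was found as Aes. Promoter sequences came from RefSeq (GRCm38.p6), with 8 of 10 factors matched.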

Additional observations from a re-analysis of the deposited data

How the results depend on the processing

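The direction of every factor in TDC against T cells held under all 18 alternatives, and 519 of 539 values for factors kept both direction and side of the threshold, as did 830 of 864 for other named genes. The 5 reversals among factors all concerned Zbtb7b in DC against T cells, a log2 fold change of 0.03 that became -0.22 with library size only, -0.085 with upper-quartile factors, -0.23 without DC replicate 1, -0.19 without T cell replicate 1 and -0.04 without T cell replicate 3, with -0.23 to 0.38 over the single libraries left out. Tox4 in TDC against DC reversed to 0.01 and 0.024 without DC or TDC replicate 1. Leaving out single libraries, 8 to 9 factors were called in TDC against T cells, 3 to 7 in TDC against DC and 7 in DC against T cells; the 3 were those without TDC replicate 2. Factors with receptor ratios that did not overlap numbered 3 to 10. With 2 groups only, Tox was under the filter for TDC against DC. With the replicate number as a block, 9, 5 and 7 factors were called, as without it. Runx3 in TDC against T cells then had a log2 fold change of -3.43 in place of -2.84, and Ets2 in TDC against DC an adjusted p of 0.0687 in edgeR. The 3 populations of a replicate share a column prefix and a pool size, but no label says whether they came from the same mice. Correlations of same-numbered deviations ran from -0.48 to 0.31, with 2 of 9 over 0.1. Those of other numbers ran from -0.31 to 0.49, with 6 of 18 over 0.1. With 3 libraries per group these correlations cannot decide whether the libraries are paired. Over all genes, calls in TDC against DC numbered 2081, with 3249 by DESeq2 and 1190 without TDC replicate 2; other totals stayed within 1.5 times. With library size only, the higher share of calls was 42.9% in place of 66.0% against T cells, and 53.1% in place of 67.5% against DC; between DC and T cells it was 50.2% in place of 64.7%. Factors with few reads in a group (Lef1, Bcl11b, Tox and Gata3 in DC) are limited by depth.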

Other observations

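The coreceptor genes set by Zbtb7b and Runx3 in T cells, named after their values were seen, are given as levels only. Cd4 was at 57.6, 209 and 243 CPM in TDC, 102, 28.6 and 100.05 CPM in DC and 266, 137 and 245 CPM in T cells. Cd8a was at 32.2, 14.3 and 71.6 CPM in TDC, 223, 304 and 233 CPM in DC and 424, 643 and 501 CPM in T cells. Cd4 in TDC thus overlapped both controls, and DC lay below T cells. Cd8a, like Runx3, was lower in every TDC library than in every control library. Cd8b1 did not share this pattern. Its TDC values of 28.6, 10.8 and 43.4 CPM overlapped those of DC (4.75, 6.06 and 15.3 CPM). Its mean was higher in TDC (27.6 CPM) than in DC (8.69 CPM). Every T cell library was far above both, at 844, 1492 and 1064 CPM of Cd8b1.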
